A study of Homo sapiens with 20 samples.

Results

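U-87MG is an established human glioblastoma cell line, and its replicates differed from one another in genes of the hypoxia response. The description concerns 16 of the 20 arrays of the experiment. The 8 arrays of biological replicates 2 and 5 were set against the 8 arrays of replicates 1 and 4, and the 4 arrays of replicate 3 are given beside them. This grouping was chosen by measured values of the same arrays, so the differences between the replicate numbers are a description and carry no test. Each replicate number holds 1 array of every agent, so agents were balanced between the sides. The independent units are 2 replicate numbers a side, not 8 arrays.

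The cells received 1 of 4 agents for 24 h. The agents were the solvent DMSO (at most 0.2% of the medium) and the metabolites I3P, HPP and PP at 40 µM each, in 5 arrays per agent, and the study asked whether these metabolites act on the aryl hydrocarbon receptor (AHR), a ligand-activated transcription factor. All arrays share the parental line in a high-glucose medium with serum, L-glutamine and pyruvate, and were seeded a day before treatment. Total RNA was hybridised to Affymetrix arrays, and expression is the authors' log2 value from robust multi-array averaging (RMA), so a difference of 1 is a doubling. The labels give neither an oxygen level, nor a cell density, nor a passage for any replicate number. The number of arrays, rather than a read depth, limits the precision. The array medians lay between 9.23 and 9.28, and 11282 genes were measured.

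Cells sense oxygen through prolyl hydroxylases, which mark the alpha subunits of the hypoxia-inducible factors HIF-1 and HIF-2 for destruction by the VHL ubiquitin ligase when oxygen is plentiful. When oxygen falls, the stabilised alpha subunit pairs with ARNT, binds a short core sequence in DNA and raises genes for glucose uptake, glycolysis, acid export, mitochondrial removal, collagen maturation and vessel growth. HIF-1 alpha is controlled mainly at the protein level, and its mRNA need not move. Glioblastoma is known for hypoxic zones in which this response is active. AHR also pairs with ARNT.

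A list of 91 hypoxia-response genes was read in 8 roles, of which 78 members were measured. The 13 members without a single-gene probe set in the table included HIF3A, EGLN2, EGLN3, PGAM1, PLIN2, EPO, EDN1 and LEP. Of the 78 measured members, 59 were higher and 19 lower in replicates 2 and 5 than in replicates 1 and 4, where 4869 of all 11282 genes were higher and 6413 lower. When each replicate number was left out in turn, the sign held for 38 of the 62 members whose arrays overlapped. For the other 16, described next as not overlapping, the sign could not change. Every array of 1 side lies above every array of the other for them. The size moved by over 1.5 times for 4 of the 16 (CA9, DDIT4, BNIP3L and PLOD2) and for 52 of the 62. The median difference was 0.12 on the log2 scale, against -0.02 over all genes. Within the agents the median was 0.14 in DMSO, 0.14 in I3P, 0.10 in HPP and 0.14 in PP. After each agent's mean was taken out, all 8 arrays of replicates 2 and 5 lay above all 8 arrays of replicates 1 and 4 for 16 members, and below them for 0 members. Overlap is stated below on these values unless the deposited levels are named. Over all genes, 52 (0.461%) lay wholly above and 46 (0.408%) wholly below. The grouping itself was drawn from these values, so nothing is read from the contrast of those shares. Fewer responding cells and less RNA per cell cannot be told apart in bulk RNA.

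The promoters of CA9, DDIT4 and BNIP3 are shown because these genes had the largest differences among the hypoxia list members whose arrays did not overlap. Each window runs from 250 bases before to 50 bases after the start of the gene in RefSeq (GRCh38.p14), 5′ to 3′ on the strand of the gene. The windows are chr9:35673678-35673977, plus strand for CA9, chr10:72273674-72273973, plus strand for DDIT4 and chr10:131981874-131982173, minus strand for BNIP3. Capitals mark the core of the hypoxia response element, ACGTG or GCGTG, or its reverse complement, CACGT or CACGC.
CA9: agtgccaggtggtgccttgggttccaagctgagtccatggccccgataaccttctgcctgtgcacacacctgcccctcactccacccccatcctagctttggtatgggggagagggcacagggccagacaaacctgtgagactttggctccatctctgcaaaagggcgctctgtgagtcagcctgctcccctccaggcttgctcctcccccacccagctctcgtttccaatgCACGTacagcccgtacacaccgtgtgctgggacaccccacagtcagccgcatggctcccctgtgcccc
DDIT4: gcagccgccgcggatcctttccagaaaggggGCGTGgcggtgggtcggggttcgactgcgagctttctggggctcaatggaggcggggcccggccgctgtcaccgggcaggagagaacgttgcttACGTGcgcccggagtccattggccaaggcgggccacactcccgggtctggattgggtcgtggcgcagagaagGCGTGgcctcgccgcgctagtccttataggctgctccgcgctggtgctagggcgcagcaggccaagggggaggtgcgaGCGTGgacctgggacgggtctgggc
BNIP3: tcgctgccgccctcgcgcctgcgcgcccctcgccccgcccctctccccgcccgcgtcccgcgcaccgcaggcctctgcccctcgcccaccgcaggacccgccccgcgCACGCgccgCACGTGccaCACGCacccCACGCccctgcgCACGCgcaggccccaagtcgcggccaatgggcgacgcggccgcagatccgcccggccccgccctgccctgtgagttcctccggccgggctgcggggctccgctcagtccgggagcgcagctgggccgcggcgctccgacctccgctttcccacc
The CA9 window held 1 match, on the minus strand 18 bases before the start. The DDIT4 window held 4 matches and the BNIP3 window 6, of which 2 are the overlapping strands of a single palindrome. A match to either core, on either strand, was found in 63.4% of the 9193 measured genes with a promoter in the table. It was found in 10 of 13 promoters of the 16 non-overlapping hypoxia members and in 43 of 53 promoters of the other measured members. Mean GC content was 70.1% in these 13 windows, 67.6% in these 53 and 64.6% over all 9193. The shares were not adjusted for it and not tested. A match is a run of letters and not evidence of binding.

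Acid and lactate export held the gene with the largest difference of all 11282 genes. CA9 encodes carbonic anhydrase IX, a surface enzyme that acidifies the outside of hypoxic cells. Its level in the 8 arrays of replicates 2 and 5 was 9.42 at the lowest, 9.95 at the median and 10.45 at the highest. In replicates 1 and 4 it was 8.43, 8.78 and 9.02. The groups did not overlap, and the arrays of replicate 5 stood far above those of replicate 2. The means of the 4 arrays were 8.77 in replicate 1, 8.73 in replicate 4, 9.49 in replicate 2, 10.41 in replicate 5 and 8.75 in replicate 3. The difference was 1.20 ± 0.46 on the log2 scale, a 2.30-fold level. Differences between the sides are given here and below ± the standard error between replicate numbers, 2 a side. Without replicate 5 the CA9 difference was 0.75. SLC16A3, the lactate exporter MCT4, ran from 11.29 through 11.48 to 11.84 in replicates 2 and 5 and from 10.88 through 11.11 to 11.22 in replicates 1 and 4, without overlap. CA12, a second surface carbonic anhydrase, differed by 0.10 ± 0.08, and its arrays overlapped. SLC16A1, the lactate carrier MCT1, differed by 0.08 ± 0.04.

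**Figure D1:**
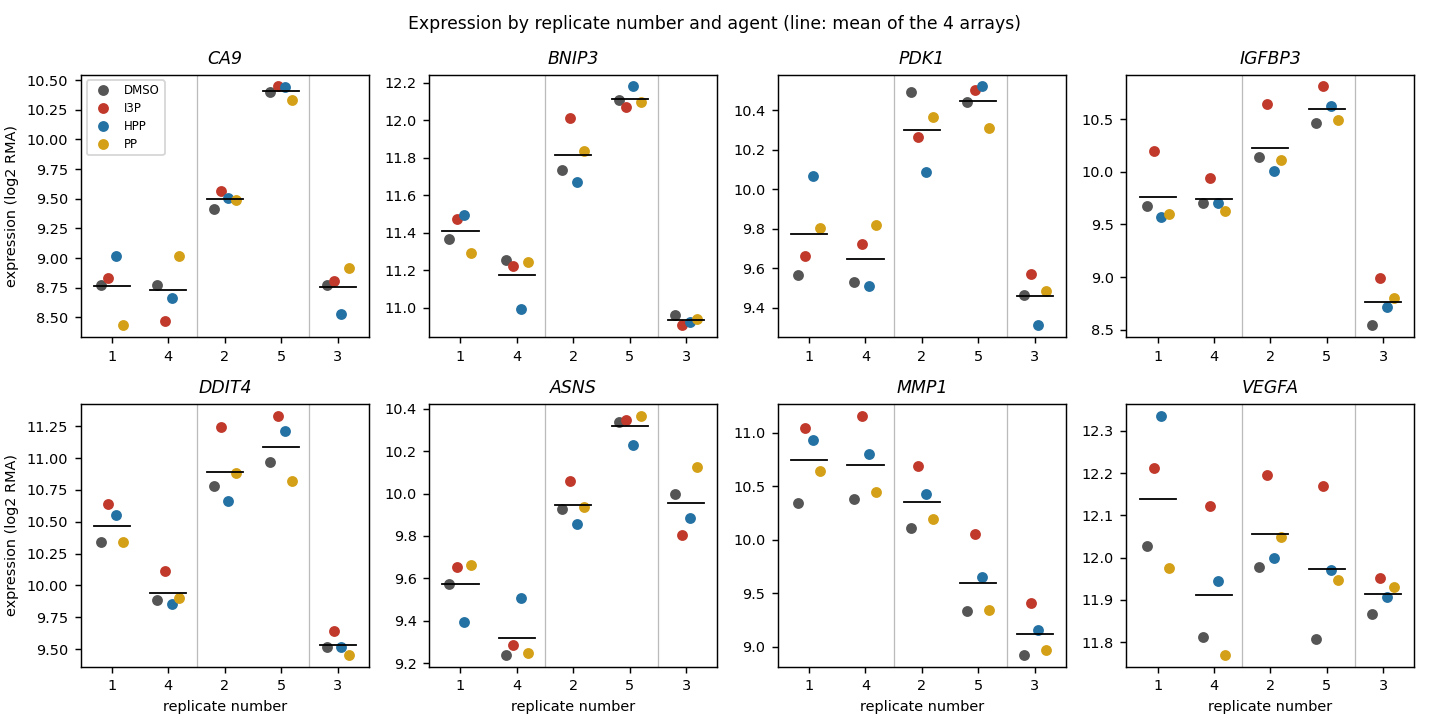
Expression of 8 genes (log2 RMA, vertical axis) by replicate number (horizontal axis), with 1 point per array coloured by agent and a line at the mean of the 4 arrays. CA9 averaged 9.49 in replicate 2 and 10.41 in replicate 5 and lay near 8.8 elsewhere, MMP1 ran the other way, and VEGFA overlapped throughout.

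The mitochondrial and survival members included 3 genes without overlap. DDIT4 encodes REDD1, an inhibitor of the growth kinase mTORC1. It measured 10.66 at the lowest, 10.93 at the median and 11.33 at the highest in replicates 2 and 5, and 9.85, 10.23 and 10.64 in replicates 1 and 4. The difference was 0.78 ± 0.28, or 0.52 without replicate 4, and the highest array of replicates 1 and 4 lay just under the lowest of replicates 2 and 5. BNIP3, a receptor that directs mitochondria to autophagy, measured 11.67, 12.04 and 12.18 in replicates 2 and 5 and 10.99, 11.27 and 11.49 in replicates 1 and 4. Its groups did not overlap, and the difference was 0.67 ± 0.19 or 1.59-fold. Its relative BNIP3L, with the same function, differed by 0.27 ± 0.12, or 0.15 without replicate 5. FAM162A, a mitochondrial protein linked to hypoxic cell death, differed by 0.30 ± 0.20 with overlap. COXFA4L2, formerly NDUFA4L2, was higher by 0.20 ± 0.09 and overlapped by a small margin, 9.52 against 9.58 at the nearest arrays. HIGD1A, a respiratory chain protein induced by hypoxia, was lower by 0.07 (difference -0.07 ± 0.22).

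Glucose uptake and glycolysis divided. PDK1, the kinase that keeps pyruvate out of the mitochondria, measured 10.09 at the lowest, 10.40 at the median and 10.52 at the highest in replicates 2 and 5. In replicates 1 and 4 it measured 9.51, 9.69 and 10.07, without overlap. The difference was 0.66 ± 0.10. SLC2A1, the glucose transporter GLUT1, ran from 10.34 through 10.61 to 10.81 against 9.84 through 10.14 to 10.34, a difference of 0.46 ± 0.12. PFKL, the liver form of phosphofructokinase, differed by 0.34 ± 0.06. These 3 were the members of 21 measured whose arrays did not overlap once the agent means were taken out. The regulatory enzymes PFKFB4 (0.33 ± 0.12) and PFKFB3 (0.27 ± 0.09) and the aldolase ALDOC (0.41 ± 0.18) were higher with overlap. Several core enzymes of the pathway differed by less than 0.05. GAPDH differed by 0.02 ± 0.01, ENO1 by 0.01 ± 0.11, ALDOA by 0.02 ± 0.07, GPI by 0.02 ± 0.06 and HK2 by 0.04 ± 0.10. The enzymes PGK1 (0.18 ± 0.12) and LDHA (0.11 ± 0.07) were higher under every agent, although the difference was 0.05 for PGK1 without replicate 4 and 0.05 for LDHA without replicate 5. PFKM, the muscle form of phosphofructokinase, differed by -0.22 ± 0.08. The role as a whole had 16 of 21 members above 0 and a median of 0.05.

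Oxygen sensing had 7 of 15 members above 0 and a median of 0.00. EGLN1 encodes PHD2, the main oxygen-sensing prolyl hydroxylase and itself a HIF target. It measured 9.246, 9.37 and 9.68 in replicates 2 and 5 (lowest, median and highest) and 9.01, 9.05 and 9.11 in replicates 1 and 4. It was the single member of this role without overlap, at 0.36 ± 0.07. ANKRD37 (0.34 ± 0.11), KDM3A, a histone demethylase (0.26 ± 0.03), and MXI1, an antagonist of MYC (0.20 ± 0.13), overlapped. The other 8 members lay below 0. Among them KDM4B, also a histone demethylase, had the lowest difference of the 78 measured members, -0.23 ± 0.02, with overlap. The factors and their ligase did not move apart. HIF1A differed by -0.03 ± 0.03, EPAS1, which encodes HIF-2 alpha, by 0.02 ± 0.13, ARNT by -0.12 ± 0.10 and VHL by 0.00 ± 0.06.

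Collagen maturation held 3 members without overlap of 9 measured, with a median of 0.23. PLOD2, which hydroxylates collagen lysines, measured 12.19, 12.27 and 12.34 in replicates 2 and 5 and 11.72, 11.93 and 12.07 in replicates 1 and 4. The difference of 0.36 ± 0.13 was 0.23 without replicate 4. LOXL2, a collagen cross-linking oxidase, differed by 0.26 ± 0.04 and the matrix protein TGFBI by 0.23 ± 0.06. LOX itself was higher by 0.49 ± 0.20, with overlap between 10.41, the lowest array of replicates 2 and 5, and 10.60, the highest of replicates 1 and 4. P4HA1, a subunit of collagen prolyl hydroxylase, was higher by 0.31 ± 0.12 with overlap. Glycogen and lipid storage had all 5 measured members above 0 and 0 without overlap. Among them the glycogen synthase GYS1 differed by 0.27 ± 0.07 and the lipid droplet protein HILPDA by 0.20 ± 0.24.

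Among the secreted members, 2 of 6 did not overlap. IGFBP3, a carrier of insulin-like growth factors, measured 10.01, 10.48 and 10.81 in replicates 2 and 5 and 9.57, 9.69 and 10.20 in replicates 1 and 4. The deposited levels overlapped because I3P arrays ran high in every replicate, and with the agent means taken out they did not. The difference was 0.66 ± 0.19. ADM, the vasodilator peptide adrenomedullin, differed by 0.27 ± 0.03. VEGFA, the principal vessel growth factor of the response, measured 11.81, 11.99 and 12.20 in replicates 2 and 5 and 11.77, 12.002 and 12.34 in replicates 1 and 4. These groups overlapped nearly completely, with a difference of -0.01 ± 0.12. ANGPTL4 (0.05 ± 0.60), STC1 (-0.01 ± 0.14) and STC2 (0.04 ± 0.09) also overlapped. The label of hypoxia therefore covers some branches of the list and not VEGFA, STC1 or core glycolytic enzymes such as GAPDH, ENO1 and ALDOA, and the cultures are called here by their replicate numbers.

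**Figure D2:**
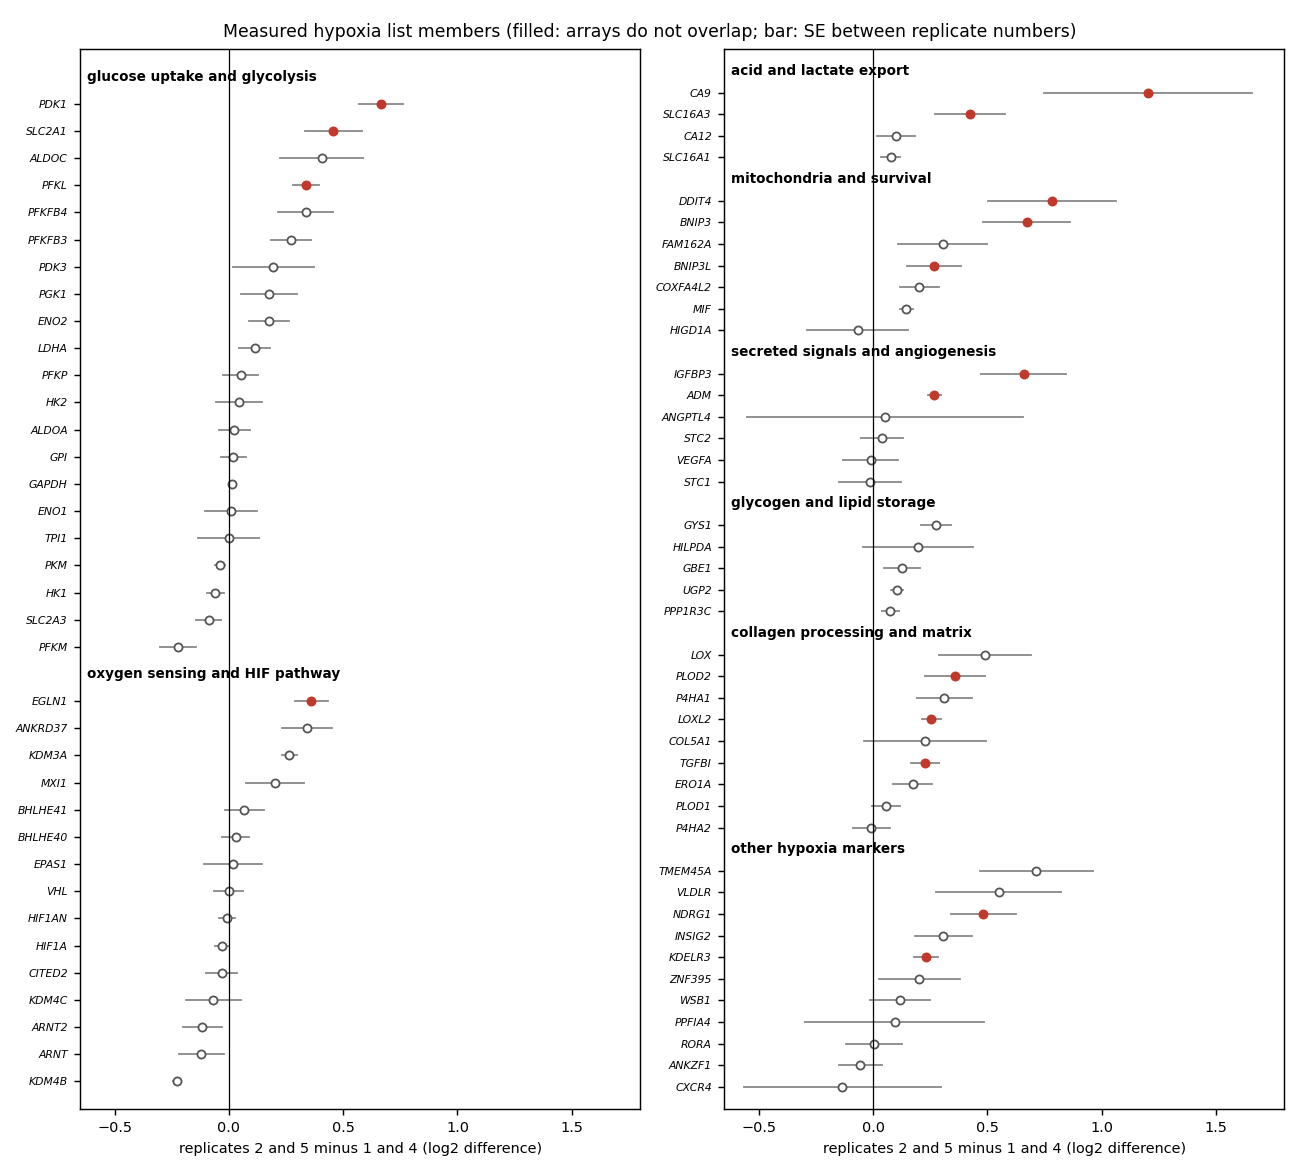
Difference between replicates 2 and 5 and replicates 1 and 4 (log2, horizontal axis) for the 78 measured hypoxia list members by role. Points are means over the 4 agents, bars are the standard error between replicate numbers (2 a side) and filled points are the 16 members whose arrays did not overlap. CA9 at 1.20 lies farthest right, and GAPDH, ENO1, HIF1A and VEGFA lie near 0.

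Among the remaining markers, NDRG1, a stress protein widely used as a hypoxia marker, measured 11.68, 11.95 and 12.09 in replicates 2 and 5 and 11.24, 11.43 and 11.58 in replicates 1 and 4. The groups did not overlap, and the difference was 0.48 ± 0.14. KDELR3, a retrieval receptor of the secretory pathway, differed by 0.23 ± 0.05 without overlap. TMEM45A (0.71 ± 0.25) and VLDLR, a lipoprotein receptor (0.55 ± 0.27), had larger differences and overlapping arrays. The chemokine receptor CXCR4 differed by -0.13 ± 0.43.

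The replicates within a side were not alike. Of the 16 non-overlapping hypoxia members, 14 were higher in replicate 5 than in replicate 2, and 12 were lower in replicate 4 than in replicate 1. Set against the mean of replicates 1, 2, 4 and 5, the median of the 16 members was -0.17 in replicate 1, -0.20 in replicate 4, 0.13 in replicate 2 and 0.29 in replicate 5. Replicate 3, which the grouping left out, had a median of -0.59 for these members and was the lowest of all 5 in 12 of them. It was also the lowest in 49 of the 78 measured members, beside 2925 of all 11282 genes. IGFBP3 averaged 8.76 in replicate 3 against 9.76 and 9.74 in replicates 1 and 4, and NDRG1 averaged 10.75 against 11.44 and 11.42. TGFBI went the other way, at 12.66 in replicate 3 and 12.70 in replicate 5. The 5 replicates thus formed a range with replicate 3 at its lower and replicate 5 at its upper end for most of these genes, rather than 2 compact groups. The differences between replicates within a side were not tested.

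**Figure D3:**
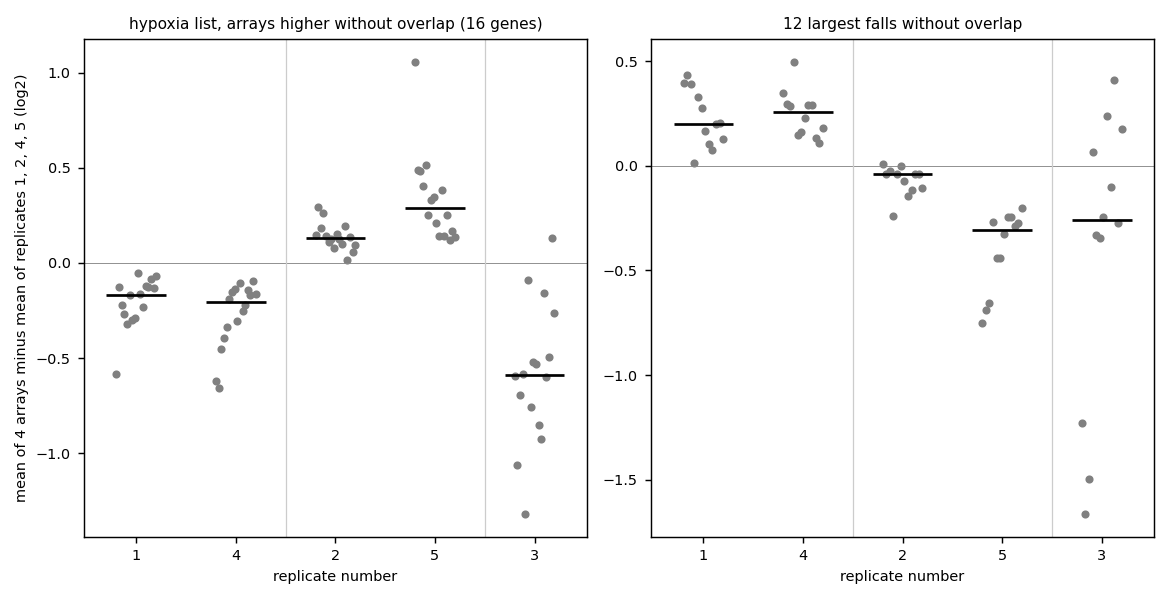
Mean of the 4 arrays of each replicate minus the mean of replicates 1, 2, 4 and 5 (log2, vertical axis) by replicate number, with 1 point per gene and a line at the median, for the 16 non-overlapping hypoxia members (left) and the 12 largest falls among genes without overlap (right). Replicate 3 has the lowest median of the hypoxia members, -0.59, and replicate 5 the highest, 0.29.

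Genes outside the hypoxia list made up 36 of the 52 that lay wholly above. SPAG4, a nuclear envelope protein, measured 9.06, 9.28 and 9.49 in replicates 2 and 5 and 7.70, 8.49 and 8.65 in replicates 1 and 4. The difference was 0.85 ± 0.15. TREM1, an activating receptor best known on myeloid cells, differed by 0.79 ± 0.10, with 10.41 as the lowest array of replicates 2 and 5 and 10.13 as the highest of replicates 1 and 4. CYTH4 (0.54 ± 0.34) and DRC10 (0.52 ± 0.10) completed the non-metabolic genes among the 12 largest without overlap. The CYTH4 difference was 0.20 without replicate 5 and 0.88 without replicate 2. CYTH4 was higher still in replicate 3, at a mean of 9.84.

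Amino acid synthesis genes were the next group. ATF4 is the transcription factor of the integrated stress response and raises amino acid synthesis and import. Of 21 measured genes of its list, 17 were higher and 4 lower, with a median of 0.19, and 2 did not overlap. Over all 11282 genes, 4869 were higher and 6413 lower, and 0.461% lay wholly above. ASNS, asparagine synthetase, measured 9.85, 10.15 and 10.37 in replicates 2 and 5 and 9.24, 9.45 and 9.66 in replicates 1 and 4, a difference of 0.69 ± 0.23. PSAT1, an enzyme of serine synthesis, differed by 0.58 ± 0.14. CTH, which makes cysteine and is not on the list, differed by 0.50 ± 0.20, or 0.31 without replicate 4. ALDH1L2, a mitochondrial folate enzyme, differed by 0.69 ± 0.39 with overlap, or 0.34 without replicate 5 and 1.04 without replicate 2. In replicate 3 ASNS averaged 9.95 and PSAT1 11.002, near replicate 2 at 9.95 and 11.07, so these genes did not share the low replicate 3 level of the hypoxia members. The ASNS promoter is shown because ASNS had the largest difference of the list among genes without overlap, with the ATF4 element TGATGNAA in capitals (chr7:97872359-97872658, minus strand).
ASNS: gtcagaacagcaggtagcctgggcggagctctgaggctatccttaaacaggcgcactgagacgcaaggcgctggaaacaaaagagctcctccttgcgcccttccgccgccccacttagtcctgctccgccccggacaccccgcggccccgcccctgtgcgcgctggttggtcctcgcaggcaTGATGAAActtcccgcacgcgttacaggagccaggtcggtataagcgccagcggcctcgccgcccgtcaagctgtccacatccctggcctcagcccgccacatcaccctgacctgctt
The element was searched on both strands, and its single match lay 68 bases before the start. It was found in 5 of 16 promoters of the ATF4 list and in 1.68% of the 9193 promoters. TXNIP, a glucose-responsive inhibitor of thioredoxin and of glucose uptake, differed by 0.46 ± 0.05 without overlap, and all 5 measured genes of its glucose-sensing list were above 0.

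MMP1, LIF and CXCL8, which encode secreted proteins, had the largest falls in replicates 2 and 5 among genes without overlap. MMP1, the interstitial collagenase, measured 9.34, 10.08 and 10.69 in replicates 2 and 5 and 10.34, 10.72 and 11.16 in replicates 1 and 4. The deposited levels overlapped and the values with agent means taken out did not, with a difference of -0.74 ± 0.38. LIF, a secreted cytokine that signals through STAT3, differed by -0.73 ± 0.33 and CXCL8, the chemokine interleukin-8, by -0.68 ± 0.32. Of 15 measured NF-kB and cytokine genes, 13 were below 0, with a median of -0.16, and 2 did not overlap. Over all 11282 genes, 6413 were below 0 and 0.408% lay wholly below. The falls were smaller without replicate 5, when MMP1 differed by -0.36, LIF by -0.40, CXCL8 by -0.36 and SERPINB2, named next, by -0.43. Without replicate 2 MMP1 differed by -1.12 and SERPINB2 by -1.57. Replicate 3 was lower still, at 9.12 for MMP1, 8.55 for LIF and 8.44 for CXCL8, so low cytokine levels and high hypoxia gene levels did not go together across all 5 replicates. SERPINB2, a protease inhibitor, had the largest negative difference of all genes, -1.002 ± 0.62, and its arrays overlapped.

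Immediate early and ERK response genes were below 0 in 17 of 18 measured, with a median of -0.16, and 3 did not overlap. For this list and those that follow, 6413 of all 11282 genes were below 0. Over all genes 0.461% lay wholly above and 0.408% wholly below. EGR1, an early growth response factor, differed by -0.49 ± 0.17 with overlap. SPRY2, a feedback inhibitor of receptor signalling, differed by -0.39 ± 0.11 and MYC by -0.36 ± 0.12, each without overlap. Outside this list, CCN1, a matrix signalling protein, differed by -0.51 ± 0.24 and the kinase PLK3 by -0.40 ± 0.13, each without overlap. CCN1 belongs to the YAP and TEAD target list, of which 7 of 13 measured genes were above 0, with a median of 0.01. Cholesterol synthesis genes were below 0 in 16 of 17 measured, with a median of -0.19, and 2 did not overlap. INSIG1, which restrains that pathway and is itself raised by it, differed by -0.48 ± 0.22. TIPARP, a target and repressor of AHR, differed by -0.33 ± 0.13. The AHR target list went both ways, with 6 of 12 measured genes above 0, 6 below and a median of -0.04. Without overlap, 1 of them was lower (TIPARP) and 1 higher, the amino acid transporter SLC7A5 at 0.42 ± 0.09. ODC1, the first enzyme of polyamine synthesis, by -0.31 ± 0.13, ACP7 by -0.44 ± 0.23 and ZNF473 by -0.31 ± 0.06 completed the 12 largest falls among genes without overlap. Without replicate 5 the difference was -0.28 for INSIG1, -0.22 for ACP7, -0.19 for ODC1 and -0.20 for TIPARP. Without replicate 4 it was -0.26 for CCN1, and without replicate 2 it was -0.66 for ACP7. Cell cycle genes had a median of -0.06, with 25 of 33 below 0, and respiratory chain genes -0.03, with 18 of 29 below 0. The median over all genes was -0.02. NRF2 targets (median -0.11, 13 of 15 below 0) and ribosome biogenesis genes (-0.10, 15 of 18) were also lower. Collagen and matrix genes had a median of 0.09, with 21 of 30 above 0.

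**Figure D4:**
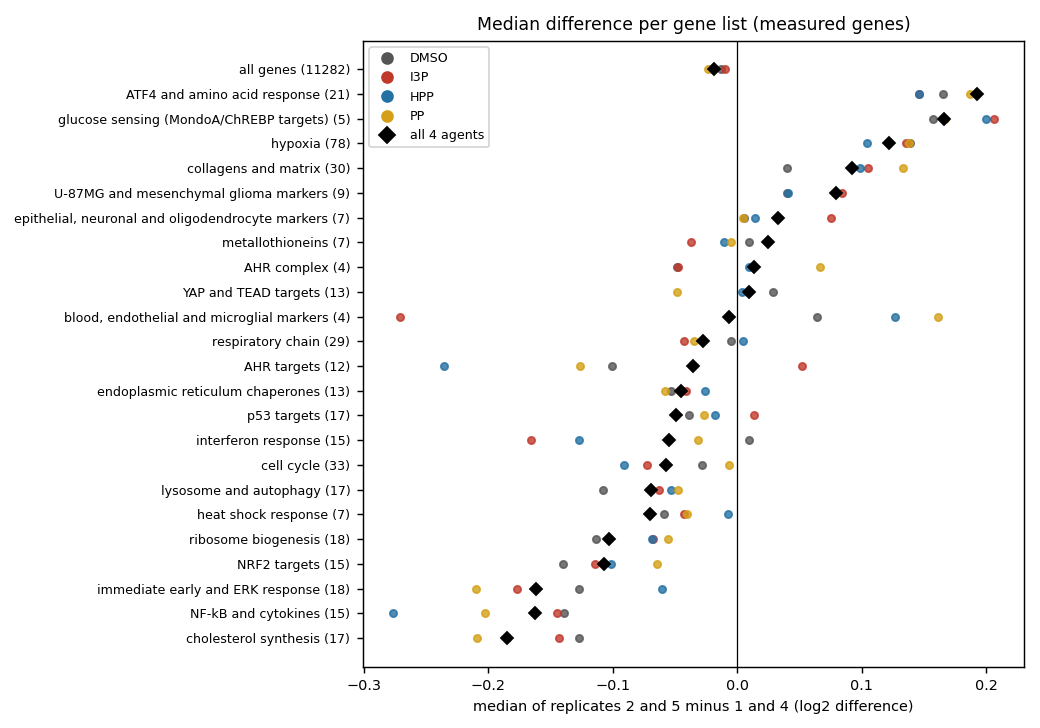
Median difference between replicates 2 and 5 and replicates 1 and 4 (log2, horizontal axis) for each gene list, with the number of measured genes in brackets. Diamonds are the differences averaged over the 4 agents and circles the medians within each agent. Hypoxia lies at 0.12, cholesterol synthesis at -0.19 and all genes at -0.02.

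Marker lists were read for the labelled line and for other cell types. Of 10 glioma and mesenchymal markers 9 were measured, among them VIM at a mean of 13.35, CD44 at 12.71, FN1 at 12.71, GFAP at 8.57 and NES at 8.31. Levels of different probe sets share no scale, so no cell type can be called present or absent from them. Of 14 blood, endothelial and microglial markers 4 were measured, and their mean level ranged from 8.14 to 8.70 in replicates 2 and 5 and from 8.25 to 8.72 in replicates 1 and 4. Of 14 epithelial, neuronal and oligodendrocyte markers 7 were measured, with ranges of 8.78 to 9.21 and 8.85 to 9.08, and among them SNAP25 averaged 10.04 and RBFOX3 9.48. GAD1, of the same list, varied between replicates, at 7.88 in replicate 1, 9.01 in replicate 4, 8.06 in replicate 2, 9.55 in replicate 5 and 8.14 in replicate 3. In these 3 lists 0 genes separated the sides without overlap.

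The compound effects were compared between the sides with limma, a test that the choice of replicates did not use. At an adjusted p under 0.05, the I3P effect differed for 0 of 11282 genes (0.0%), the HPP effect for 0 (0.0%) and the PP effect for 0 (0.0%). At an unadjusted p under 0.05 there were 219, 171 and 167 genes, fewer than the 564 that 5% of all genes would give. With the replicate number as a block the counts of calls were again 0, with 501, 378 and 358 genes at an unadjusted p under 0.05. For CA9 the I3P effect was 0.10 in replicates 2 and 5 and -0.13 in replicates 1 and 4, a difference of 0.22 with a 95% confidence interval from -1.07 to 1.52, or from -0.37 to 0.81 with the block. The smallest p belonged to FAM135B for I3P, whose effect differed by -1.51 (limma adjusted p = 0.379, or 0.221 with the block).

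The AHR target list had 12 measured genes, and its median I3P effect was 0.60 in replicates 2 and 5 and 0.36 in replicates 1 and 4. The I3P effect was larger in replicates 2 and 5 for 10 of the 12, beside 5694 of all 11282 genes. The median difference of effects of the list was 0.07. The HPP effect was larger there for 3 of the 12, with medians of 0.23 and 0.34. The PP effect was larger there for 8, with medians of 0.02 and -0.03. The difference of effects passed for 0 of the 12 genes, and the effects within each side were not tested. The TIPARP effect was 0.96 in replicates 2 and 5 and 1.13 in replicates 1 and 4, a difference of -0.17 (95% confidence interval from -0.70 to 0.36, or from -0.60 to 0.26 with the block). AHRR, the AHR repressor, gave 0.72 and 0.72. CYP1B1, a cytochrome P450 and classical AHR target, gave 1.05 and 0.68, a difference of 0.36 whose interval from 0.05 to 0.67 excluded 0 before adjustment (limma adjusted p = 1.00). SERPINB2 gave 1.48 and 1.23. Other members were smaller or uneven, such as ALDH3A1 at 0.70 and 0.01, CYP1A2 at 0.14 and -0.38, and SLC7A5 at 0.03 and -0.01. For HPP the TIPARP effect was 0.36 and 0.68, and for PP it was -0.17 and -0.01.

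**Figure D5:**
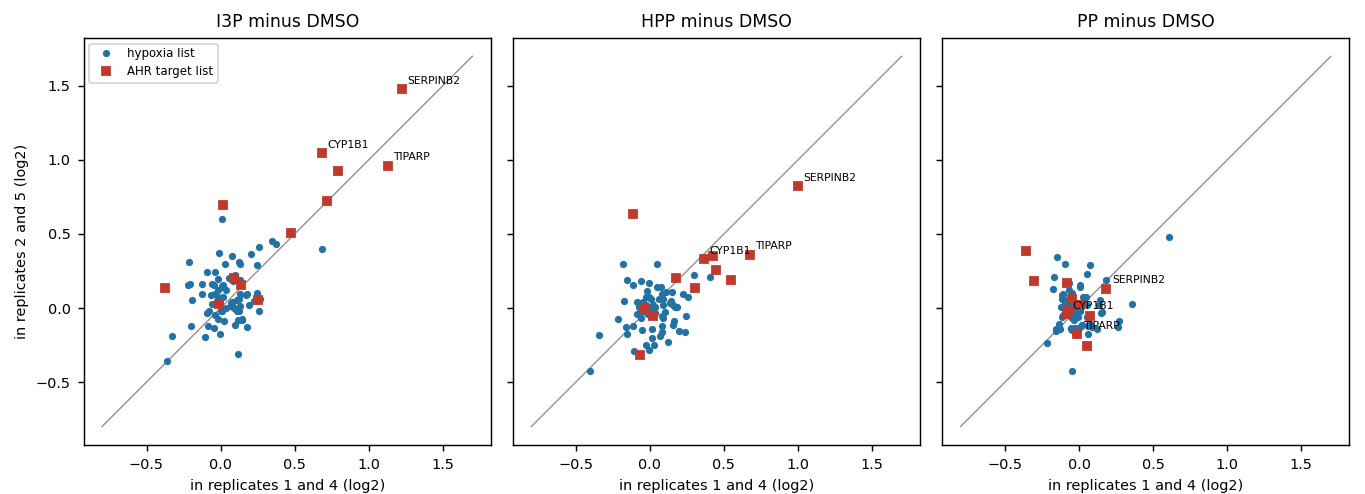
Compound minus DMSO (log2) in replicates 2 and 5 (vertical axis) against replicates 1 and 4 (horizontal axis) for I3P, HPP and PP, with hypoxia list genes as circles and AHR target list genes as squares; the line marks equal effects. TIPARP lies at 0.96 and 1.13 for I3P, and most hypoxia genes lie within about 0.4 of the origin.

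The compounds were also set against DMSO over all 20 arrays with limma. For I3P 1 of the 78 hypoxia members passed as higher, beside 9 of all genes (0.0798%) that passed as higher. This was STC2, the glycoprotein stanniocalcin 2, at 10.32 ± 0.19 in DMSO and 11.12 ± 0.33 in I3P (SD, n = 5 each), a difference of 0.80 ± 0.14 (SE, limma adjusted p = 0.0360) seen in 5 of 5 replicate numbers. With the replicate number as a block 3 members passed as higher. Of all genes, 55 (0.488%) passed as higher and 13 as lower. HK2 rose by 0.42 (limma adjusted p = 0.00087 with the block and 0.0544 without). IGFBP3 rose by 0.41 (limma adjusted p = 0.0066 with the block and 0.999 without). For HPP 0 hypoxia members passed, beside 0.0% of all genes, or 0.0443% with the block, and 161 genes had an unadjusted p under 0.05. For PP 0 passed, beside 0.0% of all genes with and without the block, and 174 genes had an unadjusted p under 0.05. The CA9 difference was 0.00 for I3P, 0.00 for HPP and 0.01 for PP, with an SE of 0.43 each, or 0.11 with the block. Between the replicate groups it was 1.20, the largest of all genes in a grouping drawn from these values. The sizes of the compound and replicate differences are therefore not compared. Of the 3 members that passed for I3P with the block, STC2 and HK2 differed between the replicate groups by 0.04 each and IGFBP3 by 0.66. STC2 is also on the AHR target list.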

How the data were processed

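Total RNA of 20 U-87MG arrays (4 agents, 5 replicates each) was analysed. The authors deposited log2 expression per probe set, made with the oligo package and RMA per the submitters' processing notes; their versions, and the filter that left 12770 probe sets, were not given in the sources used. Symbols came from the platform annotation: 1 gene was named for 11316 probe sets, more than 1 for 629 and no gene for 825. The probe set with the highest mean stood for each of the 33 genes with more than 1, which left 11282 genes.

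The replicate grouping, gene lists and tests were chosen with earlier results of these data known. Arrays were compared after subtracting each agent's mean over its 4 arrays. Named genes were the 12 largest non-overlapping differences each way, 3 per hypoxia role, 2 per other list, set pathway genes and the smallest p per test; further members were named after their values were seen. Tests used limma 3.58.1 in R 4.3.3 with Benjamini-Hochberg adjustment over all genes. They were tried on simulated data with independent arrays, which leave out the correlation between same-numbered arrays given next. Figures used Python 3.11.15 and matplotlib 3.10.9. Deviations from agent means correlated between same-numbered arrays (30 pairs, r from 0.16 to 0.71, median 0.43) and less between others (120 pairs, -0.40 to 0.38), so the numbers pair the arrays. The labels call the replicates biological without saying that their cultures were separate, so p-values measure only the spread between these samples.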

Additional observations from a re-analysis of the deposited data

Results flagged for a closer look

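In 96 groups of 8 arrays (48 genes on each side), 7 had a lowest or highest array far from the others by Dixon's criterion, and chance flags about 1 in 20 groups. All 7 lay in replicates 1 and 4, and values are deviations in log2 after the agent means were taken out. HPP replicate 1 was the highest array for CXCL8 at 1.03, LIF at 0.66, LOX at 0.069 and TMEM45A at 0.0143. I3P replicate 4 was the lowest for SPAG4 at -1.04 and ALDOC at -0.65. PP replicate 1 was the lowest for GYS1 at -0.47.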

How the results depend on the processing

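The 12 genes with the largest differences each way among those without overlap kept their direction in all 185 values recomputed under other settings. With a replicate number left out their direction could not change, because they were chosen for arrays that do not overlap. Averaging a gene's probe sets, or keeping only genes above the median level, left their values as they were. Only normalising the arrays in another way could therefore have changed a direction. Several sizes moved with a replicate left out. Larger differences among overlapping genes, such as SERPINB2, were recomputed with 1 replicate number left out at a time and under no other setting. The counts without overlap moved most. Leaving out 1 replicate number gave 169 to 557 genes higher and 234 to 999 lower, because fewer arrays must then be apart. Without taking out the agent means there were 24 higher and 21 lower, and with replicate 3 counted beside replicates 1 and 4 there were 27 and 10 (both chosen after seeing the data). The hypoxia median was 0.10 to 0.17 when 1 number was left out, with 0.17 without replicate 2. The compound effects differed between the sides for 0 genes under every setting run. The pairing as a replicate block raised the hypoxia members changed by I3P from 1 to 3, and testing only genes above the median level gave 2. Without the block this count was 0 without replicate 1, 2, 4 or 5. With the block it was 2 to 3 when any number was left out (chosen after seeing the data). HPP and PP gave 0 throughout. With 2 replicate numbers a side, the difference between the sides has no replicate test independent of its choice.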

Other observations

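Replicate 3 differed from the other replicates in further genes, and in the NF-kB and cytokine list, which also differed between the sides. MT1G, a metal-binding metallothionein, averaged 6.62 in replicate 3, against 8.503, 8.78, 9.09 and 8.29 in replicates 1, 2, 4 and 5. SPATA18, a p53 target of mitochondrial quality control, averaged 7.61 against 8.63, 8.57, 8.60 and 8.25. The replicate 3 levels of both genes lay below 7.94, the lowest mean of any probe set over the 20 arrays. The median of the NF-kB and cytokine list was -0.54 in replicate 3, against 0.09 in replicate 1 and -0.20 in replicate 5. Cell cycle genes had a median of 0.17 in replicate 3 and of -0.12 in replicate 5. These differences were not tested.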
